A study of Mus musculus with 9 samples.

Results

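The 6 genes described here, Slc5a1, Slc5a4a, Slc5a4b, Slc2a2, Slc2a5 and Slc23a1, encode transporters by which the small intestine takes up dietary sugars and vitamin C. They were selected by name from the 50600 genes of the count table, with earlier results of these same libraries in view. Both comparisons below therefore count as used in choosing them, and the values of the 6 genes are a description without a test. All 6 passed the filter on low values, which kept the 16208 genes with at least 1 TPM in at least 1 library. TPM is the read count per length of the gene, as a share of all such values of a library. The filter was met through the organoids alone for Slc5a4a, Slc5a4b and Slc23a1.

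Absorptive enterocytes of the villus take up glucose and galactose across their brush border with SGLT1, the sodium-coupled transporter encoded by Slc5a1, which is driven by the sodium gradient that the Na+/K+-ATPase maintains. Fructose enters by facilitated diffusion through GLUT5 (Slc2a5), and GLUT2 (Slc2a2) is the facilitative transporter through which hexoses leave the cell towards the blood. SVCT1 (Slc23a1) takes up ascorbate together with sodium. The mouse has a pair of genes for SGLT3, Slc5a4a and Slc5a4b, relatives of SGLT1 that have been described as glucose sensors more than as bulk transporters. Expression of these genes is a feature of differentiated enterocytes and is low in dividing crypt cells.

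RNA was sequenced from 9 mouse libraries in 3 groups of 3 numbered replicates. The 6 organoid libraries came from small-intestinal organoids of 3 WT C57BL/6 mice, kept for 24 hr in organoid medium mixed in equal parts with conditioned medium, either T-cM from tumoroids or WT-cM from WT organoids. The 3 tumoroid libraries came from untreated cultures of microdissected intestinal tumours of Apc1638N/+ mice of mixed strain background, 1 culture from each of 3 mice. Tumoroids were kept in medium with EGF and Noggin but without R-spondin1, whereas organoids received all 3 factors, and the tumour donors were older than the young adult organoid donors. Genotype, strain, medium and donor age thus all differed between tumoroids and organoids and cannot be told apart. The study describes these cultures as epithelial and free of stroma, and markers of other cell types are given below. The labels of the 6 organoid libraries contradict each other, since the title of each gives one medium and its treatment field the other. The group names used here, T-cM-titled and WT-cM-titled, follow the titles, and if the treatment field is right instead, each difference between these groups takes the opposite sign.

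The reads assigned to genes numbered from 16541635 to 25170966 in a library, and 3 counts, taken here as the limit that a count of 0 allows, corresponded to between 0.103 and 0.204 CPM (counts scaled to the TMM-normalised library size). This limit covers counting error only. The 7 markers of enterocytes (Alpi, Fabp1, Fabp2, Apoa1, Apoa4, Anpep and Vil1) summed to between 27000 and 59810 TPM in organoids and to between 387.8 and 731.5 TPM in tumoroids. The 4 epithelial markers (Epcam, Cdh1, Krt8 and Krt18) summed to between 6491 and 9763 TPM in organoids and between 9177 and 11180 TPM in tumoroids. Of 6 fibroblast and muscle markers, 5 were under 1 TPM in every library. The exception was Acta2, which had up to 92.51 TPM in tumoroids and was called higher there (log2 fold change 6.62). Of 4 immune cell markers, the pan-leukocyte marker Ptprc and the T cell marker Cd3e were under 1 TPM in all 9 libraries and Lyz2 had at most 1.11 TPM. Cd68, a lysosomal protein of macrophages, had 11.92, 16.56 and 58.3 TPM in the tumoroids and between 0.65 and 1.77 TPM in organoids, and was called higher in tumoroids (log2 fold change 3.99, SE 0.52, adjusted p = 1.7e-04). Of the 5 stomach markers Muc5ac, a gastric mucin, had 388, 52 and 283 reads in the tumoroids and 0 in each organoid library and was called higher, and Tff1 was called lower. Of the endothelial markers Cdh5 was called higher, with 1, 1 and 54 reads in the tumoroids and 0 in organoids, and Pecam1 was under 1 TPM throughout. Muc5ac and Cdh5 met the filter on low values through the tumoroids alone. Of 4 colon markers Slc26a3 (−7.41, SE 0.34, adjusted p = 9.6e-07) and Aqp8 (−4.01, SE 0.99, adjusted p = 0.0052) were called lower in tumoroids. Between the organoid groups Tff1 of the stomach list (1.07, adjusted p = 0.035) and Car1 of the colon list (3.37, adjusted p = 0.029) were called higher in T-cM-titled organoids, with 9, 59 and 26 against 5, 26 and 19 reads of Tff1 and 1, 18 and 3 against 0, 1 and 1 reads of Car1. The part of these markers in the differences below was not tested.

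Slc5a4a and Slc5a4b lie side by side on mouse chromosome 10 and are read in opposite directions, away from each other, with 36489 bases between them (GRCm38, which is mm10). Slc5a4b occupies chr10:76057494-76110961 on the minus strand and Slc5a4a chr10:76147451-76189265 on the plus strand, each with 15 exons. The longest run of bases that their transcripts share is 50, and no stretch of 100 bases, the read length, is found in both, so that no whole read matches both. The same held for every pair of the 6 genes. Their promoters, taken from RefSeq (GRCm38.p6) as the 250 bases before and 50 after the start, share a run of 10 bases just downstream of both RefSeq starts, which is shown because these neighbours differed in level and in their response below. The run is the longest that both promoters share in the same orientation, found by a search over them. It is present in 12 of 32851 promoters (0.0365%), and nothing is read from this share, since the run was chosen for its length. It stands in capitals in the windows chr10:76147447-76147476 (plus strand) for Slc5a4a and chr10:76110990-76111019 (minus strand) for Slc5a4b, both written 5′ to 3′.
Slc5a4a: tacctgaggcTGATCATTAActcaggactt
Slc5a4b: gcctgagggtTGATCATTAAtccagtgcct
The last bases of this run in Slc5a4a overlap the reverse complement of GTTAAT, a half-site of HNF1, which was found in 7.1% of all promoters and in no other promoter of the 5 transporter genes that were matched. A match is only a description of the letters.

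Slc5a1, Slc2a5 and Slc2a2, the carriers for the entry of glucose, the entry of fructose and the exit of both, had promoters of different base composition, and 150 bases upstream of the start are shown for each because all 3 had less RNA in tumoroids below. Slc5a1 (chr5:33104219-33162870, plus strand, 15 exons) and Slc2a5 (chr4:150119283-150144169, plus strand, 14 exons) had 60.3% and 65.3% G and C over the 300-base promoter, above the 52.7% that was the median of all promoters. Slc2a2 (chr3:28697903-28731359, plus strand, 11 exons) had 48.0%, as did Slc5a4b, and Slc5a4a had 49.0%. The stretches are chr5:33104069-33104218, chr3:28697753-28697902 and chr4:150119094-150119243, all on the plus strand, and the E-box CACGTG in that of Slc5a1 is in capitals. The Slc2a5 stretch begins 250 bases before its RefSeq start.
Slc5a1: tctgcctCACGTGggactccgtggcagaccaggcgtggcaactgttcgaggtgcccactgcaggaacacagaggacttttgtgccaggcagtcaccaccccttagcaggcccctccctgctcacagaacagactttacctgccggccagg
Slc2a2: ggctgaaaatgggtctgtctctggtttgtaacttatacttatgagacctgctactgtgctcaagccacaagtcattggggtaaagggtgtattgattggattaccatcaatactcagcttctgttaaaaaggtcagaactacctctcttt
Slc2a5: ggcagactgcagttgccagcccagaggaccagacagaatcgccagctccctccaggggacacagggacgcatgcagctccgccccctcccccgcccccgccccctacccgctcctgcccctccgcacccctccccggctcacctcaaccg
The E-box was present in 7.15% of all promoters. On both strands of the 5 promoters the CDX letters TTTATG were found once, in Slc5a4b (11.9% of all promoters), the HNF4 half-site CAAAGT once, in Slc2a2 (14.4%), the letters TATAAA once, in Slc5a4a (13.6%), and the GATA letters AGATAA not at all (11.2%).

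In organoids the glucose transporter dominated. Slc5a1 had 968.4, 2270 and 2439 TPM in replicates 1, 2 and 3 of the T-cM-titled organoids and 930.5, 2173 and 1945 TPM in those of the WT-cM-titled organoids. It made up between 68.2% and 83.4% of the summed TPM of the 6 genes in organoids. The next 3 genes had similar levels per length. In T-cM-titled organoids the mean was 178.5 ± 54.2 TPM (SD, n = 3) for Slc2a5, 160.6 ± 28.1 for Slc5a4b and 110.0 ± 13.5 for Slc2a2. The ranges of Slc2a5 and Slc5a4b overlapped, and Slc2a2 lay below both. In WT-cM-titled organoids the means were 184.2 ± 33.6 TPM for Slc5a4b, 181.7 ± 68.8 for Slc2a2 and 174.1 ± 40.9 for Slc2a5, and all 3 ranges overlapped. Slc23a1 and Slc5a4a came last, with 3.997 ± 0.385 and 1.993 ± 1.04 TPM in T-cM-titled organoids, where their ranges were separate. In WT-cM-titled organoids Slc5a4a had 8.127 ± 2.44 and Slc23a1 had 7.200 ± 2.43 TPM, with overlapping ranges, so that their order was not resolved there.

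**Figure D1:**
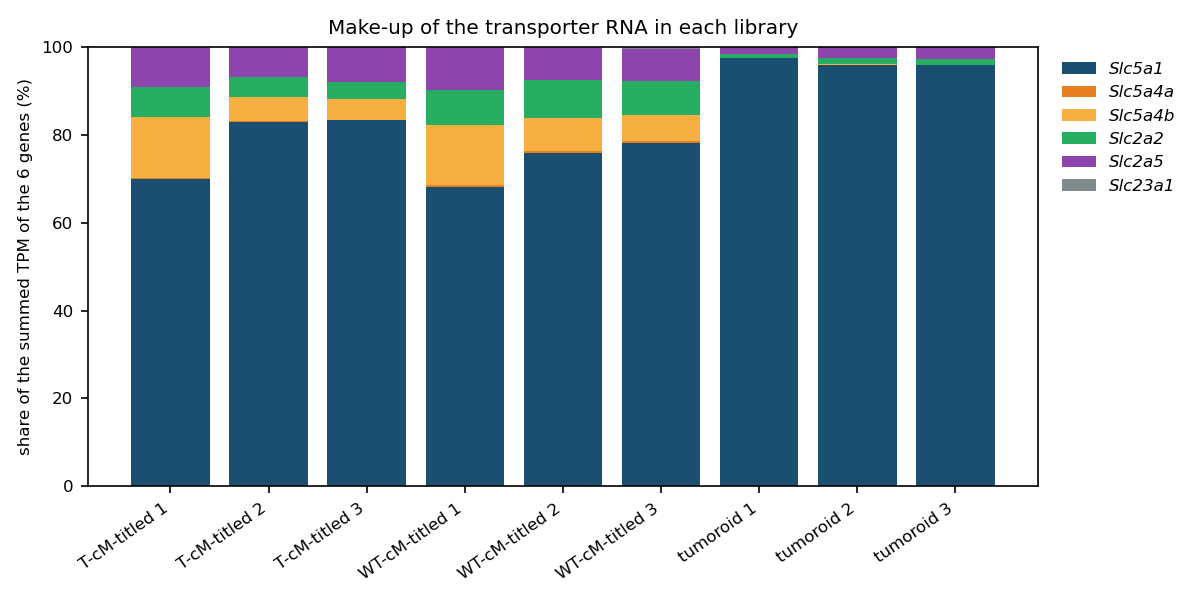
Share of the summed TPM of the 6 transporter genes (vertical axis, %) in each of the 9 libraries (horizontal axis). Each bar is 1 library and each colour 1 gene. Slc5a1 takes between 68.2% and 83.4% in organoids and between 95.9% and 97.5% in tumoroids.

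The question of the first comparison was how far tumour-derived cultures retain the expression of the normal epithelium. Every one of the 6 transporters had less RNA in each tumoroid library than in each organoid library, as did 20.2% of all 16208 genes tested, while 25.6% were higher in each tumoroid library. All 6 were called lower (edgeR quasi-likelihood test, with a Benjamini-Hochberg adjusted p below 0.05 and a log2 fold change beyond 1 in size), in a comparison in which 21% of the 16208 genes tested were called higher and 12.1% lower. These shares give the background, and since the genes were selected with this contrast known, nothing is read from their count. The median log2 fold change over all tested genes was 0.16. In these bulk cultures fewer enterocytes and less RNA per enterocyte cannot be told apart, and all 7 enterocyte markers named above were also called lower, with a median log2 fold change of −7.66. Their part in the result was not tested.

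Slc5a1 was the member that kept the most RNA. It had 131, 154 and 49.1 CPM in tumoroids 1, 2 and 3, against 1543, 3786 and 4200 CPM in T-cM-titled and 1455, 3717 and 3494 CPM in WT-cM-titled organoids. Its fitted log2 fold change was −4.77 (SE 0.58), which is 27.2-fold lower. Tumoroid 3 had the least of the 3 tumoroids, and replicate 1 had the least of each organoid group, but the lowest organoid library was still above the highest tumoroid library. In tumoroids Slc5a1 had 95.8 ± 49.2 TPM (SD, n = 3) and made up 97.5%, 96.0% and 95.9% of the summed TPM of the 6 genes.

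The facilitative transporters fell further. Slc2a5, the fructose transporter, had 1.90, 3.35 and 1.17 CPM in the tumoroids (42, 90 and 34 reads) and between 161 and 328 CPM in the 6 organoid libraries. Its log2 fold change was −6.85 (SE 0.47), 115-fold lower. Slc2a2 had 1.54, 3.20 and 0.962 CPM in the tumoroids (34, 86 and 28 reads) and between 211 and 586 CPM in organoids. Its log2 fold change was −7.46 (SE 0.53), 176-fold lower, and −8.09 without tumoroid 2. On log2(TPM + 1), which understates changes of low genes, the values were −6.04 for Slc2a2 and −5.81 for Slc2a5. Both genes were highest in tumoroid 2 and lowest in tumoroid 3, the same order as Slc5a1. Their mean TPM in tumoroids, 2.24 ± 1.27 for Slc2a5 and 1.18 ± 0.781 for Slc2a2, had overlapping ranges.

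Both SGLT3 genes and the vitamin C transporter were at or next to 0 in tumoroids. Slc5a4b had between 2960 and 4762 reads in each organoid library, with 238, 201 and 183 CPM in T-cM-titled and 227, 290 and 210 CPM in WT-cM-titled organoids. In tumoroids a single read was counted, in replicate 2, and none in the others. On pooled counts this is a ratio of 17500, with an exact interval of 3140 to 691000 that covers counting error only. Slc5a4a had 0 reads in all 3 tumoroids, and its organoid mean put it at least 36.6-fold lower when 3 counts were assumed in each tumoroid library. Slc23a1 also had 0 reads in the 3 tumoroids and was at least 64.1-fold lower by the same limit. For these 2 genes the bound was set by their low level in organoids, where Slc5a4a had between 15 and 153 reads and Slc23a1 between 85 and 295 reads per library. The sizes of the loss of Slc5a4a, Slc23a1 and Slc5a4b can therefore not be ranked from these values.

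**Figure D2:**
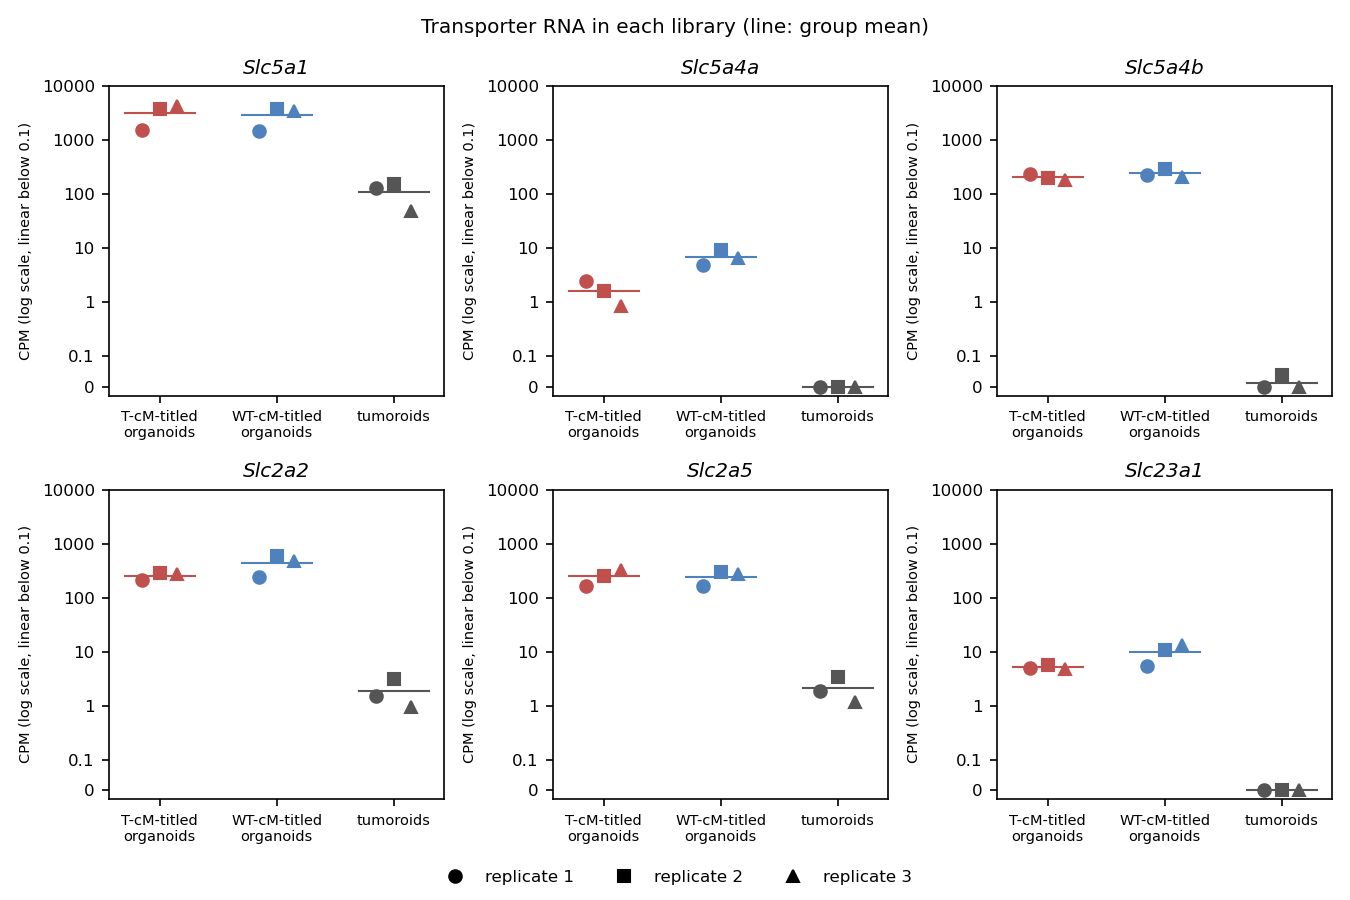
CPM of each transporter gene (vertical axis, log scale, linear below 0.1) in the 3 groups. Each point is 1 library, its shape gives the replicate number and the horizontal line is the group mean. In all 6 panels the 3 tumoroid points lie below the 6 organoid points, and Slc5a4a and Slc23a1 are at 0 in every tumoroid library.

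The second comparison asked whether the conditioned medium changed the organoids. Here 1 of the 6 genes, Slc5a4a, was called, and it was lower in T-cM-titled organoids. Over all 16208 genes 0.673% were called higher and 0.432% lower, which is 179 genes in all, and this count was 385 without replicate 1, 1 without replicate 2 and 94 without replicate 3. Without the fold change threshold, 3 of the 6 genes were lower at an adjusted p under 0.05 (Slc5a4a, Slc2a2 and Slc23a1) and 0 higher, where 5.03% of all genes were higher and 5.05% lower. These counts are again a description of genes chosen with the contrast known. Of the 7 enterocyte markers none was called in this comparison, and at an adjusted p under 0.05 alone Alpi was higher (0.75, SE 0.07, adjusted p = 4.3e-08) and Fabp1 (−0.61, SE 0.10, adjusted p = 1.4e-04), Fabp2 (−0.56, SE 0.10, adjusted p = 3.3e-04) and Anpep (−0.41, SE 0.09, adjusted p = 0.0032) were lower. Their part in the differences of the transporters was not tested.

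Slc5a4a had 2.43, 1.63 and 0.845 CPM in T-cM-titled organoids 1, 2 and 3 and 4.84, 9.30 and 6.60 CPM in WT-cM-titled organoids 1, 2 and 3. The reads behind them numbered 46, 24 and 15 in the former and 88, 153 and 149 in the latter. Every T-cM-titled library was below every WT-cM-titled library, and Slc5a4a was the 1 gene of the 6 whose groups did not overlap. Over all genes tested, 5.28% were separated in this direction and 5.12% in the other, so that a separation of this kind is not particular to Slc5a4a. The log2 ratio within the pairs of equal replicate number was −0.99, −2.51 and −2.96, and the fitted log2 fold change was −2.04 (SE 0.25), 4.11-fold lower. Without replicate 1 the log2 fold change was −2.69. The gene was not called without the replicate block, where its log2 fold change was −2.06, nor without replicate 2, where it was −1.83.

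Its neighbour Slc5a4b did not move with it. The log2 ratio of Slc5a4b was 0.07, −0.53 and −0.20 in pairs 1, 2 and 3, with a fitted log2 fold change of −0.21 (SE 0.09), and the gene was not called. As a consequence the ratio of Slc5a4b to Slc5a4a in TPM was 62.7, 79.1 and 139 in T-cM-titled organoids and no more than 30.1 in any WT-cM-titled library.

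Slc2a2 and Slc23a1 were lower in all 3 pairs, with fitted values under the fold threshold. Slc2a2 had 211, 280 and 279 CPM in T-cM-titled and 237, 586 and 485 CPM in WT-cM-titled organoids. Its log2 ratio was −0.16, −1.06 and −0.80 in the 3 pairs and its fitted log2 fold change −0.67 (SE 0.10), 1.59-fold lower. The groups overlapped through WT-cM-titled replicate 1, which lay below T-cM-titled replicates 2 and 3. Slc23a1 had 5.02, 5.77 and 4.90 CPM in T-cM-titled and 5.55, 10.6 and 13.1 CPM in WT-cM-titled organoids. Its log2 ratio was −0.14, −0.88 and −1.41, with a fitted log2 fold change of −0.83 (SE 0.18), 1.78-fold lower. It passed the fold threshold as well without replicate 1, with −1.15, but had −0.81 without replicate 2 and −0.52 without replicate 3. The difference of Slc23a1, as of Slc5a4a, was smallest in pair 1 and largest in pair 3.

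The brush-border transporters of glucose and fructose showed no such difference. Slc5a1 had log2 ratios of 0.09, 0.03 and 0.27 in the 3 pairs and a fitted log2 fold change of 0.14 (SE 0.07). Slc2a5 had 161, 254 and 328 CPM in T-cM-titled and 168, 298 and 272 CPM in WT-cM-titled organoids, with log2 ratios of −0.06, −0.23 and 0.27 and a fitted log2 fold change of 0.01 (SE 0.08). Slc2a5 was lower in pairs 1 and 2 and higher in pair 3, and its sign turned with upper-quartile scaling (−0.01) and without replicate 3 (−0.14). The balance of exit to entry transporter was compared within each library. Slc2a2 divided by Slc2a5 in TPM was 0.776, 0.652 and 0.503 in T-cM-titled organoids and 0.834, 1.16 and 1.05 in WT-cM-titled organoids.

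**Figure D3:**
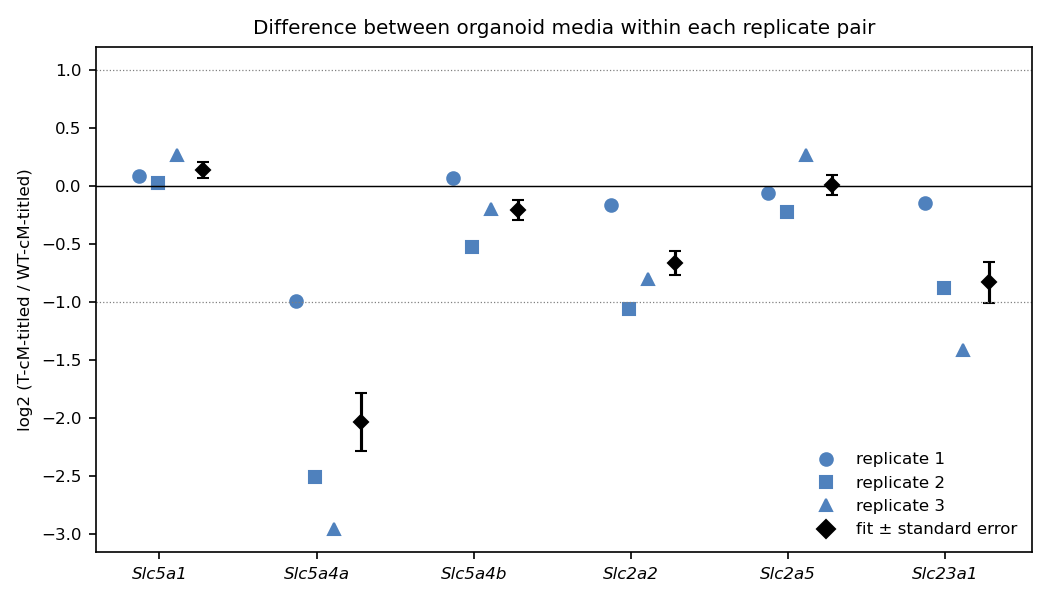
Log2 ratio of T-cM-titled to WT-cM-titled organoids (vertical axis) for each of the 6 genes (horizontal axis), in each replicate pair (blue symbols) and as the fitted log2 fold change with its standard error (black diamonds, n = 3 pairs). Dotted lines mark the fold threshold of 1 on the log2 scale in either direction. Slc5a4a lies lowest in the fit, at −2.04, and Slc5a1 and Slc2a5 lie at 0.14 and 0.01.

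Replicate 1 stood apart in both organoid groups. Slc5a1, Slc2a2 and Slc2a5 were lowest in replicate 1 of each organoid group. Slc5a4a and Slc23a1 were lowest there only among WT-cM-titled organoids, and Slc5a4b in neither group. In the same libraries the crypt stem cell marker Olfm4 had 158.93 TPM (T-cM-titled) and 251.35 TPM (WT-cM-titled), against between 13.60 and 28.60 TPM in replicates 2 and 3. The part of these cells in the low values was not tested. Without replicate 1, Slc2a2 had a log2 fold change of −0.92 between the organoid groups, against −0.48 without replicate 2 and −0.61 without replicate 3.

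Over the 9 libraries the genes with the pattern closest to each transporter were found from the root mean square difference of log2 CPM (prior count 2), each gene centred on its own mean. This is a description of 3 groups of libraries, which most of these genes share. Slc5a1 was closest to Guca2b, which encodes uroguanylin, at 0.27, followed by Tkfc, the triokinase of fructose breakdown, at 0.39, and Prlr, the prolactin receptor, at 0.39. Slc2a5 was closest to Mfsd4b2, a major facilitator transporter gene (0.20), then to Cyp3a11, a cytochrome P450 of the drug-metabolising family (0.20), and Vwce (0.23). Slc2a2 was closest to Scin, which encodes the actin-severing protein scinderin (0.24), Mfsd4b2 (0.36) and the sugar transporter gene Slc2a7 (0.39). The remaining members had fewer reads in tumoroids or none. Slc5a4b was closest to Ugt2b5, a glucuronosyltransferase (0.58) and Fabp1, the liver-type fatty acid-binding protein (0.69). Slc5a4a was closest to Acot3, an acyl-CoA thioesterase (0.38), Slc37a2 (0.58) and Bbox1, of carnitine synthesis (0.61), and Slc23a1 to Prrx1 (0.24), Slc6a3 (0.27) and Syna (0.30). Among the 6 genes themselves Slc2a2 and Slc2a5 had the smallest value, 0.45, and Slc5a1 and Slc5a4b the largest, 3.01. Slc5a4a, Slc5a4b and Slc23a1 had almost no reads in tumoroids, so that the prior count and their organoid level set their values. The farthest pair is therefore not resolved, and the genes closest to these members carry the same limit.

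The surroundings of the transporters were read from a list of 67 genes of sugar and vitamin C handling, grouped by role, of which 55 passed the filter. Between tumoroids and organoids 11 of the 55 were called higher, 32 lower and 12 were not called, where 21% of all genes tested were called higher and 12.1% lower. Their median log2 fold change was −1.54, against 0.16 over all tested genes. Among the called genes Gulo, Gsto2 and Isx met the filter through the tumoroids alone. Slc2a7, Slc2a10, Slc5a11, Slc5a12, Lct, G6pc and Pck1 met it through the organoids alone. Such genes were tested only because of the group where they are high, and their calls are a description. Which cells express the list genes was not measured in these bulk libraries, and no test of the list was made. Between the organoid groups 1 of the 55 was called higher and 0 lower, with a median of −0.09, where 0.673% of all genes were called higher and 0.432% lower.

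The enzymes that supply the transporters with monosaccharides were lower in tumoroids without exception. All 4 disaccharidases were called. Sis, sucrase-isomaltase, fell by 8.88 on the log2 scale (SE 0.55, adjusted p = 3.2e-06), Treh, the trehalase, fell by 6.12 (SE 0.40, adjusted p = 4.3e-06) and Lct, the lactase, fell by 8.56 (SE 0.83, adjusted p = 3.0e-05). Lct had 0, 18 and 3 reads in the tumoroids, and its log2 fold change was −10.65 without tumoroid 2. None of the 4 was called between the organoid groups, where Sis, the most abundant, had −0.09 (SE 0.08, adjusted p = 0.55).

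Of 12 genes of fructose and glucose metabolism, 9 were called lower in tumoroids and 2 higher. Khk, the ketohexokinase that phosphorylates fructose after its entry, fell by 4.68 (SE 0.36, adjusted p = 8.1e-06), and G6pc, the glucose-6-phosphatase that frees glucose for export, fell by 8.41 (SE 0.73, adjusted p = 1.6e-05), with −9.18 without tumoroid 2. Fbp2, a fructose-bisphosphatase, fell by 1.92 (SE 0.19, adjusted p = 3.4e-05). The genes that rose were hexokinases, Hk1 by 2.16 (SE 0.39, adjusted p = 0.0014) and Hk2 by 1.58 (SE 0.17, adjusted p = 6.2e-05), which phosphorylate glucose in most tissues. Between the organoid groups none of the 12 was called.

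Among the other facilitative transporters 3 of 5 tested were called lower in tumoroids and 0 higher. Slc2a7, a hexose transporter of the intestine, fell by 8.03 (SE 0.85, adjusted p = 4.9e-05), with 1, 5 and 0 reads in the 3 tumoroids, and had −9.72 without tumoroid 2 and −7.42 without tumoroid 3. Slc2a9, a urate transporter, fell by 1.54 (SE 0.24, adjusted p = 5.2e-04) and Slc2a10 by 1.87 (SE 0.57, adjusted p = 0.021). Slc2a10 was not called when replicate 1, 2 or 3 of the organoids was left out, with log2 fold changes of −1.76, −1.92 and −1.96, nor with the organoid libraries summed per replicate number (−1.89). On log2(TPM + 1) neither Slc2a9 (−0.95) nor Slc2a10 (−0.73) passed the fold threshold. Slc2a1, the glucose transporter found in most tissues, was not called and had 0.33 (SE 0.28, adjusted p = 0.36) in tumoroids and 0.33 (SE 0.09, adjusted p = 0.013) between the organoid groups.

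Among the other sodium-coupled transporters of the SLC5 family 2 of 6 rose and 2 fell in tumoroids. Slc5a9, a transporter of mannose and glucose, rose by 1.20 (SE 0.28, adjusted p = 0.0051), but by 0.95 without organoid replicate 1 and 0.78 without tumoroid 2, under the fold threshold. Slc5a3, the myo-inositol transporter, rose by 1.53 (SE 0.43, adjusted p = 0.014), a call that was lost without organoid replicate 3 (1.46), without tumoroid 2 (1.06), against T-cM-titled organoids alone (0.86) and with the organoid libraries of each replicate number summed (1.42). In CPM its groups overlapped, with 11.3 in the lowest tumoroid and 22.7 in the highest organoid library. Slc5a11, a second inositol transporter, fell by 6.80 (SE 0.91, adjusted p = 2.0e-04) and had 0, 18 and 0 reads in the tumoroids. The size of the Slc5a11 difference therefore rests on tumoroid 2, since no read is left without it and the fit, then −12.03, gives no size. Without tumoroid 3 it was −6.18. Slc5a12, a lactate transporter, had 0 reads in all 3 tumoroids and was at least 7.66-fold lower at 3 counts per library (17 and 43 of its 92 organoid reads were in replicate 2), and was not called on log2(TPM + 1). Slc5a3 was also the single list gene called between the organoid groups, higher in T-cM-titled organoids by 1.28 (SE 0.22, adjusted p = 2.3e-04), with 138, 334 and 307 reads against 140, 110 and 96. It had 1.90 without replicate 1, and was not called without replicate 2 (0.995) or replicate 3 (0.88).

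The other genes of vitamin C handling did not all follow Slc23a1. Of 7 tested, 3 were called lower and 3 higher in tumoroids. Slc23a2, the second ascorbate transporter SVCT2, fell by 2.00 (SE 0.43, adjusted p = 0.0034), with −2.77 without tumoroid 2. Slc23a4 fell by 2.02 (SE 0.57, adjusted p = 0.015), but was not called without organoid replicate 1 (−1.74) and had −3.20 without tumoroid 1. Rgn, the gluconolactonase regucalcin of ascorbate synthesis, fell by 3.07 (SE 0.23, adjusted p = 7.0e-06). Slc23a3, an SLC23 family member, rose by 4.18 (SE 0.32, adjusted p = 8.3e-06), with between 318 and 623 reads in tumoroids and between 5 and 27 in organoids. Gulo, which catalyses the last step of ascorbate synthesis in mice, had 89, 36 and 26 reads in the tumoroids, 0 in each T-cM-titled organoid library and 0, 1 and 1 in the WT-cM-titled organoids (adjusted p = 3.8e-04). Gsto2, a glutathione transferase that reduces dehydroascorbate, rose by 3.44 (SE 0.65, adjusted p = 0.0016), with 2.64 without tumoroid 3. Gsto1, its relative, was the most abundant and had 0.28 (SE 0.07, adjusted p = 0.013) between the organoid groups, where none of the 7 was called.

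Of the 4 genes of the sodium pump that drives SGLT1 and SVCT1, 2 were called lower in tumoroids and 1 higher. Atp1b1, which encodes a beta subunit, fell by 1.18 (SE 0.23, adjusted p = 0.0020), but by less than the fold threshold on both TPM scales (−0.63 and −0.63). Fxyd3, a regulator of the pump, rose by 3.34 (SE 0.30, adjusted p = 1.8e-05). None of the 4 was called between the organoid groups.

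Both PDZ scaffolds on the list, proteins that anchor brush-border transporters, were called lower in tumoroids. Slc9a3r1, which encodes NHERF1, fell by 1.79 (SE 0.24, adjusted p = 1.9e-04) and Pdzk1 by 2.41 (SE 0.78, adjusted p = 0.027). Tumoroid 2 had 4.76 TPM of Pdzk1 and the others 0.54 and 0.45, and the gene was not called without organoid replicate 2 (−2.22) or 3 (−2.19) or without tumoroid 1 (−1.99) or 3 (−1.94), nor against WT-cM-titled organoids alone (−2.25) or with summed organoid libraries (−2.43). Without tumoroid 2 it had −4.27. In CPM the groups overlapped for Pdzk1, with 4.54 in the highest tumoroid and 4.01 in the lowest organoid library. Pdzk1ip1, which encodes the SGLT-binding membrane protein MAP17, rose by 4.69 (SE 0.34, adjusted p = 5.7e-06), with between 2869 and 3880 reads in tumoroids and between 42 and 229 in organoids. Between the organoid groups none of these 3 genes was called, and Slc9a3r1 had 0.42 (SE 0.08, adjusted p = 3.5e-04).

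Of 14 regulators 7 were called lower in tumoroids and 2 higher. Hnf4g, a nuclear receptor of enterocytes, fell by 4.65 (SE 0.39, adjusted p = 1.3e-05), Mlx, the dimer partner of the sugar-responsive factor ChREBP, by 1.65 (SE 0.16, adjusted p = 3.1e-05), and Gata6, a GATA factor of the intestine, by 1.30 (SE 0.16, adjusted p = 1.1e-04). The call of Gata6 ended on both TPM scales (−0.75 and −0.77). The 7 also include Hnf4a (−1.16), not called on either TPM scale (−0.68 and −0.68) or without tumoroid 3 (−0.97), and Cdx1 (−1.44), not called without organoid replicate 1 (−1.40), 2 (−1.51) or 3 (−1.45) or with summed organoid libraries (−1.46). Isx, an intestine-specific homeobox repressor, rose by 5.03 (SE 0.75, adjusted p = 3.4e-04), from between 0 and 3 reads per organoid library to 23, 33 and 99 in the tumoroids. It met the filter on low values through the tumoroids alone. Its log2 fold change was 4.27 without tumoroid 3, 4.43 without organoid replicate 1 and 5.73 without organoid replicate 3. On log2(TPM + 1) it was 2.015 and on log2(TPM + 0.1) it was 4.39. Sgk1, a kinase known to increase SGLT1 activity, rose by 3.25 (SE 0.60, adjusted p = 0.0015), with 7.20, 79.8 and 104 TPM in the tumoroids and between 3.12 and 6.41 TPM in organoids. In CPM the groups overlapped, since tumoroid 1 had 10.8 CPM of Sgk1 and the highest organoid library 13.6 CPM, and the log2 fold change was 2.66 without tumoroid 3. None of the 14 was called between the organoid groups, where Hnf4a, the most abundant of them, had 0.11 (SE 0.07, adjusted p = 0.38).

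**Figure D4:**
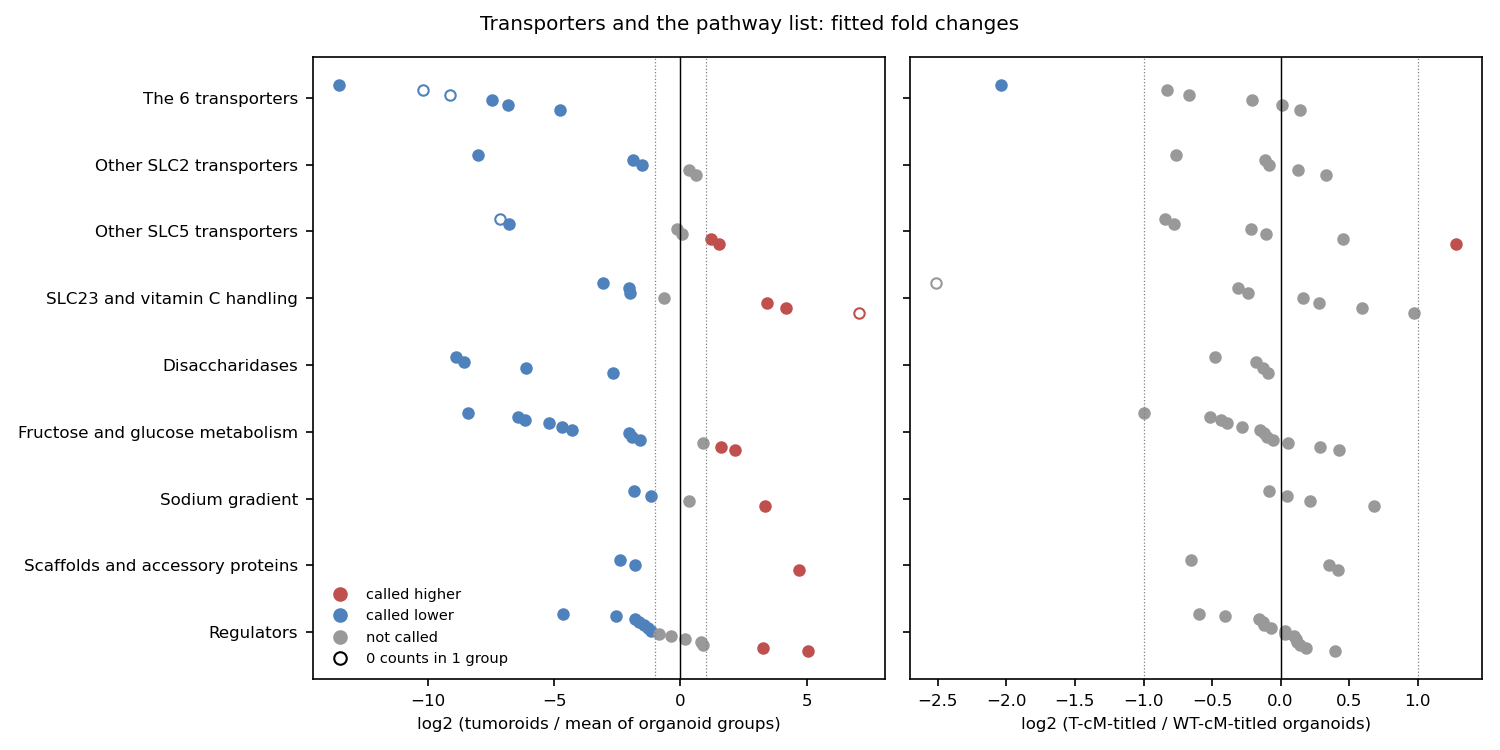
Fitted log2 fold changes (horizontal axes, with different scales) of the 6 transporters and of the 55 tested list genes by role (rows), for tumoroids against organoids on the left and between the 2 organoid groups (T-cM-titled over WT-cM-titled) on the right. Each point is 1 gene, coloured by its call; an open point had 0 counts in 1 group, so that its position depends on the fit. On the left 11 list genes are called higher and 32 lower, and on the right Slc5a3 is the 1 list gene called.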

How the data were processed

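RNA from 6 organoid and 3 tumoroid libraries was sequenced as polyadenylated, stranded paired-end libraries. The authors aligned reads to mm10 with STAR (2.5.3a) and deposited raw counts per gene of the Gencode annotation (vM13) for each library, and the same data as TPM, which the authors scaled for gene length. The counting tool, its strand setting and the lengths are not given in the sources used here. Reads counted per library ranged from 16541635 to 25170966. Gene positions came from Gencode release M21, on the same build.

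The software was edgeR 4.0.16, DESeq2 1.42.0 and limma 3.58.1 under R 4.3.3. Genes that reached a TPM of 1 in any 1 library entered the tests, on raw counts with TMM factors and edgeR's quasi-likelihood F test, in the form used before edgeR 4, with Benjamini-Hochberg adjustment over 16208 genes. A call needed an adjusted p below 0.05 together with a log2 fold change beyond 1 in size. Tumoroids were compared with the mean of both organoid groups over 9 libraries. This fit had no block, so that the 6 organoid libraries of 3 mice entered as if they were independent. Its standard errors and p-values therefore do not allow for the shared mice. With the organoid libraries summed per replicate number 2886 genes were called higher and 1845 lower, against 3400 and 1963. The organoid groups were compared over 6 libraries, blocked on the replicate number, since the series has 3 mice per group and the deviations of same-numbered libraries correlated (r = 0.546, 0.338 and 0.547). P-values measure the spread between these libraries. Standard errors are the fold change divided by the square root of F. Samples were grouped by title. The fits were also run on simulated counts of known fold changes, with the same dispersion for every gene and no effect of mouse or replicate. This checks the code and does not show how the fits behave on the spread of these data.

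The 6 genes, the list, the markers and the alternatives were chosen with earlier results of these data known. Alternatives were voom, DESeq2, the newer edgeR form, other factors and filters, log2(TPM + 1) and log2(TPM + 0.1), no fold threshold, the block added or left out, summed organoid pairs, single control groups, each replicate left out and the other medium label. List genes were named by the smallest p among those called, at most 3 per role and direction, or the most abundant of a role where none was called. For each transporter the 3 genes of most similar pattern with a mean of at least 1 CPM were named. A few of the genes that these rules name are not reported here. Olfm4, Acta2, Ptprc, Cd3e, Lyz2, Cd68, Muc5ac, Tff1, Cdh5, Pecam1, Slc26a3, Aqp8 and Car1 come from the marker lists. Hnf4a and Cdx1 were named after their values were seen. Promoter motifs were chosen after the data were examined. Of the 6 genes, 5 were matched to a promoter sequence. Protein sequences were not used here.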

Additional observations from a re-analysis of the deposited data

How the results depend on the processing

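All 6 transporters were called lower in tumoroids under every alternative run, and the list genes called there kept their direction under each of them. The 6 genes were chosen with this contrast known, and Slc5a4a, Slc5a4b and Slc23a1 met the filter through the organoids alone. For them this is a description and gives no support. Named genes that were not called, such as Slc2a1, were not refitted one by one. Tumoroid calls rose from 5363 to 8165 without the fold threshold. On log2(TPM + 0.1) the median log2 fold change over all genes was 0.642 (against 0.165 with TMM, 0.11 with RLE and 0.27 with upper-quartile factors), and 78.5% of calls were higher at either pseudocount, against 63.4%. Over all alternatives, single genes kept their side of the thresholds in 899 refits and lost a call in 32. The fold of single genes moved by over 1.5 times for 22 genes on log2(TPM + 1), 11 on log2(TPM + 0.1) and 7 with voom, and for 9 genes without tumoroid 2, 5 without tumoroid 3 and 3 without tumoroid 1.

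The comparison of the organoid groups was less stable. Its 179 calls became 104 with voom, 93 with DESeq2 and 1634 without the fold threshold, and between 1 and 385 when a replicate was left out (385 without replicate 1, 1 without replicate 2 and 94 without replicate 3). Without the replicate block edgeR called 0 genes (904 at an unadjusted p under 0.05), 0 of the 6 transporters and 0 list genes. Limma on log2(TPM + 1) and log2(TPM + 0.1) also gave 0, 0 and 0 (2690 and 2553 genes unadjusted), where edgeR had 3568. Of the 6 transporters 1 was called, 3 without the fold threshold, and 0 to 2 when a replicate was left out. Of the list 1 gene was called, 0 by DESeq2, 2 with upper-quartile factors, 2 without the TPM filter, 18 without the fold threshold, and 0 to 3 when a replicate was left out. Slc5a4a missed the call on both TPM scales (−1.64 and −2.07), and Slc5a3 in voom (1.34), DESeq2 (1.27), both TPM fits (0.86 and 1.20) and without the block (1.36).

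With the medium named by the treatment field the log2 fold changes were −0.14 for Slc5a1, 2.04 for Slc5a4a, 0.21 for Slc5a4b, 0.67 for Slc2a2, −0.00831 for Slc2a5, 0.83 for Slc23a1 and −1.28 for Slc5a3. Slc2a5 was also −0.0135 with upper-quartile factors and −0.14 without replicate 3. The mean of Slc23a1 in T-cM-titled organoids, 5.23 CPM, was 4.75 CPM on the library total. The causes were not tested. Counts of 15 to 46 reads limit Slc5a4a in T-cM-titled organoids, and 0 reads bound the losses of Slc5a4a and Slc23a1.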

Other observations

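Of 4 crypt stem cell markers, Lgr5, the R-spondin receptor, rose in tumoroids by 6.47 on the log2 scale (SE 0.48, adjusted p = 6.8e-06, edgeR), Ascl2 by 3.39 (SE 0.35, adjusted p = 4.2e-05) and Smoc2 by 1.83 (SE 0.42, adjusted p = 0.0049). Olfm4 was not called (−2.59, SE 1.17, adjusted p = 0.092). All 4 goblet cell markers fell, among them Muc2, the main mucin of the gut, by 2.69 (SE 0.29, adjusted p = 5.7e-05). Of 4 Paneth cell markers 2 fell and 1, Mmp7, rose by 1.98 (SE 0.39, adjusted p = 0.0022). Of 3 enteroendocrine markers Chga fell by 1.07 (SE 0.35, adjusted p = 0.028) and the others were not called, and of 3 tuft cell markers Avil rose by 2.11 (SE 0.15, adjusted p = 6.4e-06) and the others were not called. In CPM the tumoroid and organoid libraries overlapped for Smoc2, Mmp7 and Chga. None of the stem, goblet, Paneth, enteroendocrine and tuft cell markers was called between the organoid groups, where Smoc2 had −0.61 (SE 0.09, adjusted p = 4.5e-05).

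Fbp1, a fructose-bisphosphatase and a list gene singled out after its values were seen, had −0.997 (SE 0.12, adjusted p = 8.4e-07) between the organoid groups, just under the fold threshold, with 1165, 1212 and 2550 reads in T-cM-titled organoids and 1450, 3879 and 7003 in WT-cM-titled organoids.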
